A study of Mus musculus with 8 samples.

Results

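The TET enzymes are 3 dioxygenases, encoded in the mouse by Tet1, Tet2 and Tet3, and their own genes were followed here as places where 5-hydroxymethylcytosine (5hmC) was or was not listed. The members were all rows with these gene names, which came to 9 of 73538 promoter regions summed over 5 comparisons and 50 of 181581 peaks summed over 6 libraries. TET enzymes oxidise 5-methylcytosine in DNA to 5hmC, and further to 5-formylcytosine and 5-carboxylcytosine, which base excision repair can replace with unmodified cytosine. They need iron, oxygen and 2-oxoglutarate. TET1 and TET3 can carry a CXXC domain that binds CpG-rich DNA, whereas TET2 lacks it. Neurons of the brain are rich in 5hmC, and cultured fibroblasts are generally poor in it. The peak lists here ran the other way, with 549 peaks in primary neurons and 176853 in fibroblasts, and the reason was not tested.

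The assay was hMeDIP-seq, sequencing of the genomic fragments that an antibody against 5hmC pulls down. All cells were from mice of the ICR strain and were described with 3-5 passages. The libraries were neurons induced from fibroblasts at 1, 3, 5 and 7 dpi, an abbreviation left unexplained by the labels, then primary neurons from the hippocampus of 1-day-old pups, which the submitters named as positive control, and, as their negative control, fibroblasts of E13.5 mouse embryos (MEFs). A further 2 inputs, 1 of MEFs and 1 mixed, were not analysed here. The labels do not say how the neurons were induced. Each group was 1 library, so no difference below has a replicate check, and all 5 comparisons used the same MEF library. What was measured is the mark on DNA at the Tet genes, and the files hold no expression values, so the labelled cell types could not be checked by marker genes. In such bulk samples, a mark in fewer cells and less of it per cell cannot be told apart.

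No total of reads is known for any library. The depth behind a promoter region is known, because each value was a whole number of reads times a factor: a read of the other library counted 1.75 to 1.80 times a MEF read. The authors' lists held regions within about 2000 bp of a transcription start site (TSS). The lowest count in the lists with more reads than MEFs was 9, the medians being 10 or 11, and the lowest MEF count in the lists with fewer reads was 15, the medians being 23 or 24. A gene that is not listed had no region past the authors' threshold, and its reads are not known. A count belongs to the exact bounds of its region, which the authors set anew in each comparison. Wherever a region had the same bounds in several lists of one direction its MEF reads were equal (9619 of 9619 places with fewer reads, 149 of 149 with more). Regions listed with more reads and 0 MEF reads nevertheless overlapped, in 12.2 to 17.6% of cases, a region of fewer reads with at least 15 MEF reads. None held such a region whole. The overlapped region could be from the same comparison, as for 254 of the 400 cases at 1 dpi. How reads were assigned to a region is not stated, so how far 0 reads in MEFs can be relied on is not known. It cannot be taken to hold for the surroundings of a window.

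The 3 start sites are shown first, because TET enzymes act mainly at CpG sites. All listed regions lay outside these windows. For Tet1 this was fixed by the annotation: the files use a TSS 7.31 kb away, and the lists cover about 2000 bp around it. The sequences run from 250 bases before to 50 bases after the TSS in the RefSeq promoter table (GRCm38.p6), 5′ to 3′ on the minus strand, with each CG in capitals.
Tet1, chr10:62887275-62887574: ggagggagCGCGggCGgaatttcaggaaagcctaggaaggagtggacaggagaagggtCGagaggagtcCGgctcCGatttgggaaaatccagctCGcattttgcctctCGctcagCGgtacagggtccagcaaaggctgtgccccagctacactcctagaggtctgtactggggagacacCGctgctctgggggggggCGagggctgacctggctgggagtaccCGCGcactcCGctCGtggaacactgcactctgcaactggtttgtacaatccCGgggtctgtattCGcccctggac
Tet2, chr3:133544341-133544640: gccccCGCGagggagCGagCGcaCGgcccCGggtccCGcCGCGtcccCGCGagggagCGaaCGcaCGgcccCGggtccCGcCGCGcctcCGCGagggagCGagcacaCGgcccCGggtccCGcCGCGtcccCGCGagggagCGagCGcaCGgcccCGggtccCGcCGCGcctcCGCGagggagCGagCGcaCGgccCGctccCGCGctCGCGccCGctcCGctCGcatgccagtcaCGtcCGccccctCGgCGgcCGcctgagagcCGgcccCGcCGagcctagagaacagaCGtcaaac
Tet3, chr6:83441629-83441928: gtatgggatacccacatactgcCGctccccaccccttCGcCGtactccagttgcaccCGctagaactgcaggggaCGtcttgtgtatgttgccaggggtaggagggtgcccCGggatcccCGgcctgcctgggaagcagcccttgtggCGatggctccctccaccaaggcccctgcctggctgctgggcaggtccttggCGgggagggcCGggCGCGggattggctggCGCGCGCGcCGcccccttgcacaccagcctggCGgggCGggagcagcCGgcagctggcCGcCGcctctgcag

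The Tet2 window stood out for its CpG content. It held 57 CG, a number that 0.152% of the 32851 promoter windows reach, against 22 in Tet3 and 17 in Tet1, which 23.1% and 31.4% of windows reach, and a median of 7 over all windows. G and C made up 81.3% of the Tet2 window, 71.3% of the Tet3 window and 61.7% of the Tet1 window. Part of the Tet2 window is a tandem repeat: within its first 200 bases, 94.0% of positions matched the base 84 positions further on. That offset had the highest share of matches among those tried and is not a measure of the repeat unit, which can be shorter. The motif GGGCGG, counted on both strands (as GGGCGG or CCGCCC), occurred 2 times in Tet3 and once each in Tet1 and Tet2, and 35.7% of all windows hold it.

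Tet1 was listed with fewer reads than MEFs at all 4 days of induction. It was not listed in primary neurons, where its reads are not known, so no difference from the induced neurons was measured. Its MEF count on those days, 17, lay near the lowest in these lists, 15. Tet2 was listed with more reads than MEFs in primary neurons and in induced neurons of 3, 5 and 7 dpi, but not of 1 dpi. Tet3 was listed once, with more reads at 7 dpi. Of all 26220 genes, 36.8, 34.3, 34.1 and 34.3% were listed with fewer reads at 1, 3, 5 and 7 dpi, and 10.9, 16.9 and 7.44% with more reads at 3, 5 and 7 dpi; for primary neurons this share was 7.43%. The list of fewer reads in primary neurons, without a Tet gene, named 34.8% of genes, and the list of more reads at 1 dpi, also without one, named 11.7%. Fewer reads at all 4 days were listed for 26.2% of genes, and in all 5 comparisons for 24.7%.

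**Figure D1:**
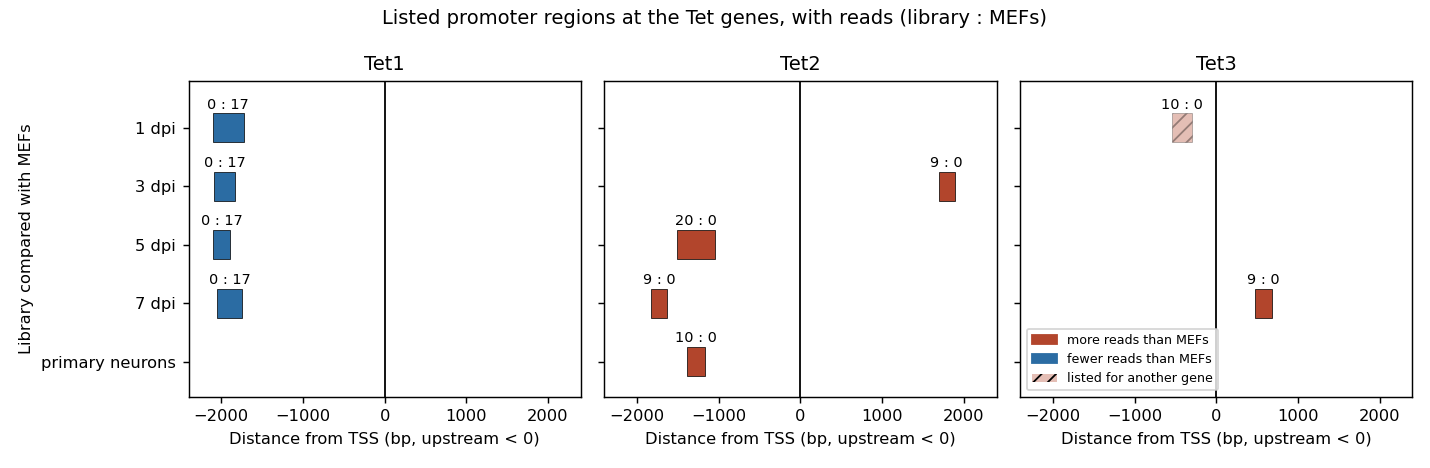
Regions of the promoter lists at Tet1, Tet2 and Tet3 by distance from the TSS that the files use (x axis, bp, upstream below 0) and by library (y axis), each with its reads in the library and in MEFs. The Tet1 regions overlap one another, with 0 reads against 17, whereas the Tet2 regions lie at 3 places, and the hatched region at Tet3 was listed for a neighbouring gene.

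At Tet1, which encodes a TET enzyme first known from embryonic stem cells and leukaemia, the same stretch was listed at every day. The 4 regions lay on chromosome 10 between 62881741 and 62882120 (mm10) and shared 160 bp, from 62881901 to 62882060. The induced neurons had 0 reads there at 1, 3, 5 and 7 dpi, against 17 reads in MEFs in each comparison. The MEF count was 17 for each of the 4 bounds, and since it comes from the same MEF library the 4 results are not independent of each other.

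With 0 reads held at 3, the Tet1 region was 3.19-fold lower at 1 dpi and 3.24-fold lower at 3, 5 and 7 dpi than in MEFs. The counting intervals reached down to 2.32-fold at 1 dpi and 2.36-fold at the other days and have no upper end. In the authors' deposited table the p-value was 2.62e-05 at 1 dpi and 2.43e-05 at the other days. None of the 4 had a p-value below 1e-05 in that table. Relative to the median log2 ratio of every listed region, the sign turned, to 0.23, 0.23, 0.082 and 0.30 at 1, 3, 5 and 7 dpi, since most listed regions had fewer reads than MEFs. The Tet1 ratio is set by the floor and its 17 MEF reads, so a smaller loss than the median cannot be read from it. Of the listed regions with fewer reads, 20.4 to 21.9% had 17 MEF reads or fewer, so Tet1 had a low count for these lists. Of all genes, 26.2% were listed with fewer reads at all 4 days, against 34.1 to 36.8% at single days, and the recurrence at Tet1 is read against that share.

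The annotation matters for Tet1. The files measured distance from a TSS at 62880014 and put the centres of the 4 regions 1896 to 1996 bp upstream of it. The promoter table has the Tet1 TSS at 62887324, 7.31 kb further upstream, and the Tet1 transcript of the files is not the one in the RefSeq gene table. By the RefSeq span (chromosome 10 from 62804570 to 62887469) the regions are therefore inside the gene, 5.31 to 5.41 kb downstream of its outer start. Exons and introns are not told apart here.

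At Tet2, the TET enzyme gene often mutated in blood cancers, the listed regions did not share 1 place. At 5 dpi the region from 133545441 to 133545900 on chromosome 3 held 20 reads, against 0 in MEFs. In primary neurons the region from 133545561 to 133545780 held 10 reads, against 0 in MEFs. The neuron region lay wholly inside that of 5 dpi, both with their centre 1280 bp upstream of the TSS.

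The other Tet2 regions lay apart from these. At 7 dpi the region from 133546021 to 133546220 held 9 reads, against 0 in MEFs, with its centre 1730 bp upstream of the TSS and its edge 120 bp beyond the 5 dpi region. At 3 dpi the region from 133542501 to 133542700 held 9 reads, against 0 in MEFs, on the other side of the TSS, 1790 bp downstream and 2740 bp from the 5 dpi region. Recurrence at Tet2 is thus one of the gene name, and only the regions of 5 dpi and primary neurons overlap.

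With 0 MEF reads held at 3, Tet2 was 11.7-fold higher at 5 dpi, 6.0-fold higher in primary neurons, and 5.25-fold higher at 3 dpi and at 7 dpi. The regions were 459 bp long at 5 dpi, 219 bp in primary neurons and 199 bp at 3 and 7 dpi. Reads and floor were not scaled to length, so these ratios do not rank the regions by signal per base. The counting intervals began at 8.64-fold at 5 dpi, 4.03-fold in primary neurons and 3.45-fold at 3 and 7 dpi. The p-values in the authors' deposited table were 1.39e-09 at 5 dpi, 1.61e-05 in primary neurons and 4.85e-05 at 3 and at 7 dpi. The region at 5 dpi had a high count for its list, where 94.7% of regions had 20 reads or fewer, but it was also the longest of the Tet2 regions. The 9 reads at 3 and 7 dpi are the lowest count in these lists, shared by 1103 of 3239 and 664 of 2204 regions. None of the 5 Tet regions with more reads, Tet3 included, overlapped a region listed with fewer reads in any comparison. Of all genes, 0.702% were listed with more reads in the same 4 comparisons as Tet2.

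At Tet3, the TET enzyme of the oocyte, also expressed in brain, the 7 dpi library had 9 reads from 83441001 to 83441200 on chromosome 6, against 0 in MEFs. The region lay 578 bp downstream of the TSS. Its counts, its ratio of 5.25 at the floor and the p-value of 4.85e-05 in the authors' deposited table equal those of Tet2 at 7 dpi. A further region beside the Tet3 TSS was listed for B230319C09Rik, a long non-coding RNA gene that starts next to it. It was found by position after the values had been seen. From 83441981 to 83442220, between 303 and 542 bp upstream of the Tet3 TSS, the 1 dpi library had 10 reads, against 0 in MEFs. With 0 reads held at 3, that is 5.93-fold higher, with an interval from 3.98-fold.

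**Figure D2:**
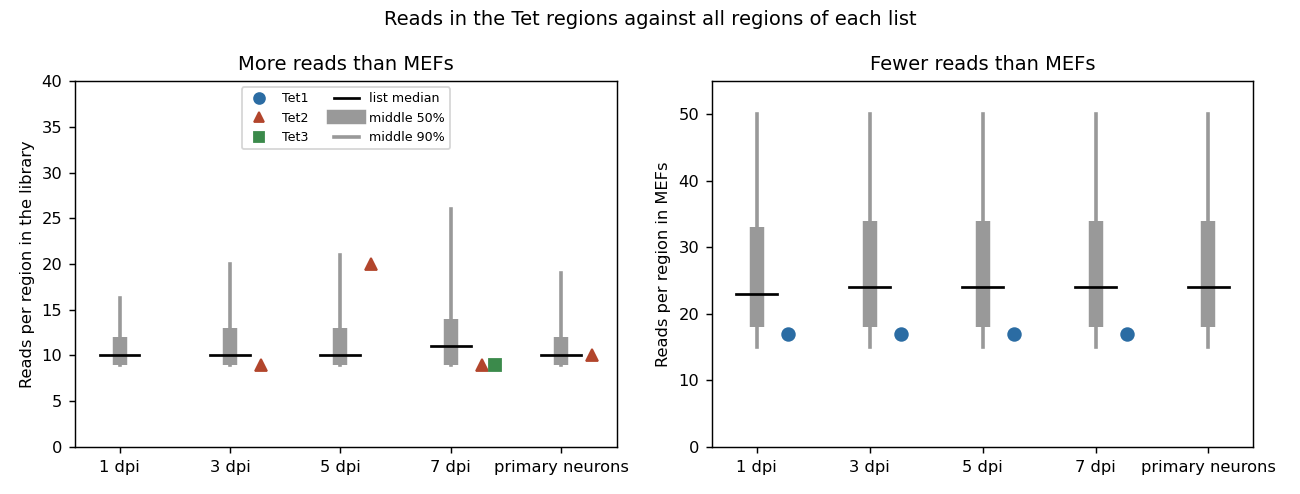
Reads per region (y axis) in the lists with more reads (left, reads in the library) and with fewer reads than MEFs (right, MEF reads) by library (x axis); thick and thin bars span the middle 50 and 90% of regions, lines are medians, and symbols are the Tet regions. Tet2 at 5 dpi, with 20 reads, is far above the list's median of 10, whereas the regions with 9 reads lie at the bottom and those of Tet1, with 17 MEF reads, lie under the median of 23 or 24. Counts are not scaled to region length, and the Tet2 region at 5 dpi was 459 bp long.

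None of the 9 regions overlapped a peak of any of the 6 libraries. The nearest MEF peak was 3.3 to 3.4 kb from the Tet1 regions, 22.1 to 25.6 kb from the Tet2 regions and 20.3 kb from the Tet3 region. The promoter lists and the peak lists thus describe different places at these genes.

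Peaks carried a Tet name almost entirely in MEFs. There, 40 peaks were assigned to Tet2, 8 to Tet1 and 1 to Tet3. At 3 dpi 1 peak was assigned to Tet2, and no peak of the 1, 5 and 7 dpi or primary neuron libraries carried a Tet name. The share of all genes with an assigned peak was 0.805, 3.86, 3.41 and 4.71% at 1, 3, 5 and 7 dpi, 1.62% in primary neurons and 75.6% in MEFs, where the list held 176853 peaks against 262 to 1579 in the others. The lack of Tet peaks outside MEFs is therefore close to what short lists give for any gene. No peak was placed at a Tet promoter by the authors' annotation in any library.

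The Tet2 peaks of MEFs spread over a wide stretch of chromosome 3. Of the 40, 34 lay upstream of the TSS, up to 341 kb away, 3 in the gene body, and the remaining 3 beyond its end. Their fold enrichment, the authors' own value, was 2.66 at the lowest, 4.54 at the median and 9.20 at the highest, with 21 to 72 tags at the summit, and the median over all MEF peaks was also 4.54. The highest lay 277 kb upstream, from 133820774 to 133821671, and the highest in the gene body, at 6.05-fold, lay from 133509296 to 133510248. The 3 dpi peak, from 133730634 to 133731113, lay 186 kb upstream with 36 tags at the summit and a fold enrichment of 5.90. It met no MEF peak, and the nearest was 1812 bp away.

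The gap between Tet2 and the next protein-coding gene, Cxxc4, was 691 kb long and held 62 MEF peaks. Cxxc4 encodes IDAX, a CXXC protein that is known to bind TET2 and whose gene lies near Tet2. The gap held 8.97 peaks per 100 kb, against a median of 6.75 over 866 gaps of 346 to 1382 kb, of which 94.8% held as many or fewer. Peaks assigned to Cxxc4 itself numbered 28 in MEFs and 0 in the other libraries.

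**Figure D3:**
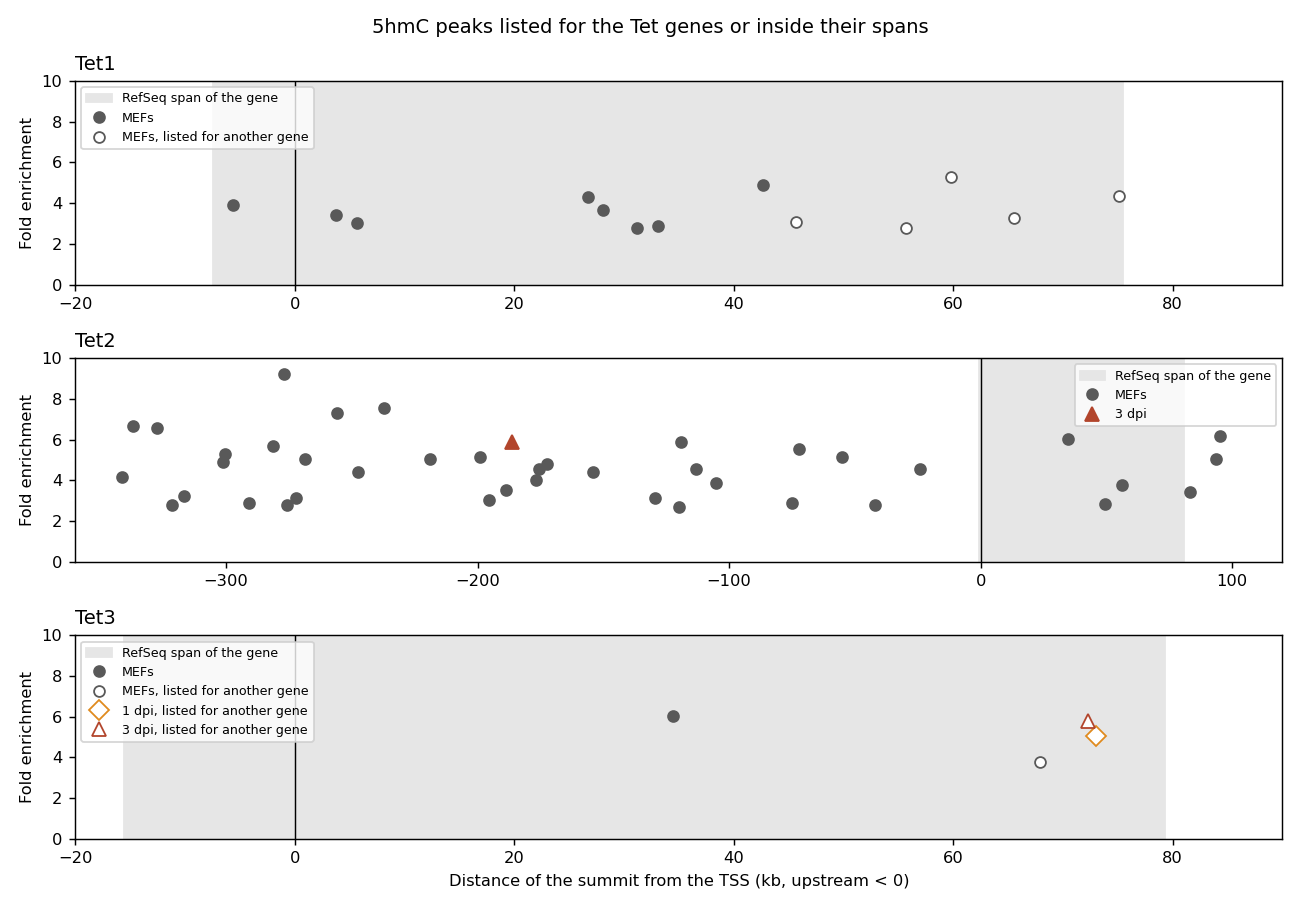
Fold enrichment (y axis, the authors' value) of each peak assigned to a Tet gene or lying in its RefSeq span (grey), by distance of the summit from the TSS the files use (x axis, kb, upstream below 0). Filled symbols were assigned to the Tet gene and open ones to a neighbour; MEF peaks run upstream of Tet2 to 341 kb, and the peaks of 1 and 3 dpi in Tet3 lie at one place.

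The Tet1 peaks of MEFs were weak and close together. The 8 assigned to Tet1 had fold enrichments of 2.77 to 4.92, with a median of 3.53, and 21 to 40 tags at the summit. The highest lay from 62836888 to 62837367, 42.7 kb inside the gene. One peak classed as intergenic, from 62885418 to 62885897 at 3.89-fold, was 5.65 kb upstream of the TSS in the files but inside the RefSeq span.

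Assignment followed the nearest TSS at these genes, and it hid peaks that lie inside Tet1 and Tet3. Of 20 peaks inside the 3 RefSeq spans in all libraries, 8 were assigned to a neighbour and classed as intergenic, and in all 8 the neighbour's TSS was nearer than that of the Tet gene. In MEFs 5 such peaks in the 3′ part of Tet1 were given to Ccar1, at 2.77 to 5.29-fold, and 1 in Tet3 was given to Bola3, at 3.78-fold. The single peak assigned to Tet3 in MEFs, from 83407182 to 83407661, lay 34.5 kb inside the gene with 47 tags at the summit and a fold enrichment of 6.05. The counts by position, those of the gap to Cxxc4 and those per 100 kb were added after the values had been seen.

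By position, Tet1 held 13 MEF peaks in 82.9 kb, Tet2 3 in 81.5 kb and Tet3 2 in 94.8 kb. Per 100 kb these are 15.7, 3.68 and 2.11 peaks, against a median of 6.83 and a middle 50% of genes from 4.98 to 8.78 over 3484 protein-coding genes of 50 to 150 kb. As many or fewer peaks were found in 99.4% of these genes for Tet1, in 14.1% for Tet2 and in 5.71% for Tet3. The place of Tet1 rests on weak peaks: with peaks of at least 5-fold only, each Tet gene held 1 peak, and the shares were 23.6% for Tet1, 24.0% for Tet2 and 20.7% for Tet3.

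**Figure D4:**
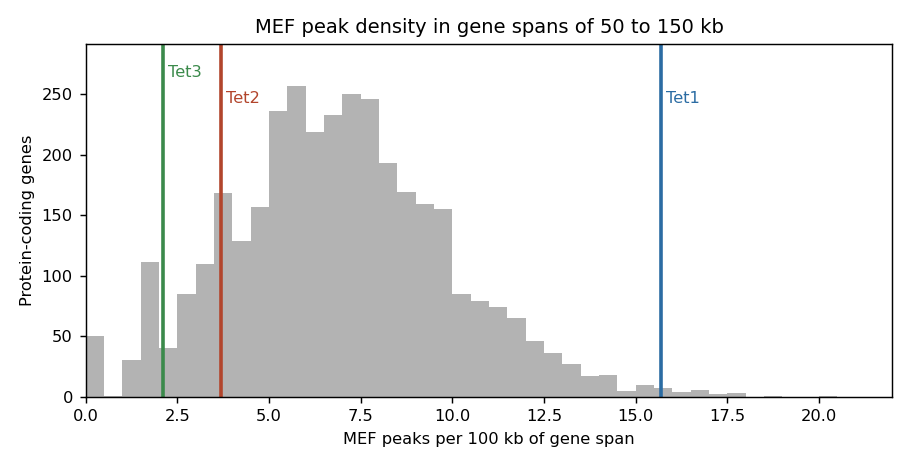
Number of protein-coding genes with a span of 50 to 150 kb (y axis) by MEF peaks per 100 kb of span (x axis), with the 3 Tet genes as lines. Tet1, at 15.7, lies in the upper tail, and Tet2, at 3.68, and Tet3, at 2.11, lie below the median of 6.83.

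The peaks at Tet3 in the induced neurons recurred at neighbouring days. The 1 dpi library had a peak from 83368482 to 83369556, with 58 tags at the summit and a fold enrichment of 5.03. The 3 dpi library had one from 83368398 to 83369803, with 93 tags and a fold enrichment of 5.81, which covered all 1075 bp of the peak at 1 dpi. Their nearer edge lay 6.03 kb from the 3′ end of the gene. Both were given to Bola3, which encodes an iron-sulphur cluster assembly factor, and met no MEF peak, the nearest being 4149 bp away at 1 dpi and 3902 bp at 3 dpi. No peak was listed in the Tet3 span at 5 or 7 dpi or in primary neurons.

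The genes whose promoter reads most resembled those of Tet1 were many. Among genes listed in the same 4 comparisons and no other, 200 without counting predicted genes, 13 had the same counts as Tet1, and 109 lay within 0.5 log2 units of it (root mean square over the 4 comparisons). The first 3 by name were D14Abb1e, Dcstamp and Klkb1, each with 0 reads at 1, 3, 5 and 7 dpi, against 17 in MEFs. For Tet2, 22 genes shared the same listing and 2 lay within 0.5. The nearest was Fxyd7, a regulator of the sodium pump in brain, with 9, 16 and 13 reads at 3, 5 and 7 dpi, and 13 in primary neurons, against 0 in MEFs, at a distance of 0.36. Dcpp2, at 0.38, had 12, 13, 10 and 10 reads, and Galk1, the galactokinase gene, at 0.51, had 9, 10, 9 and 9, against 0 in MEFs.

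A list of 37 genes that work around the TET enzymes was chosen with earlier results known: suppliers of cofactor and recruiters, enzymes that remove oxidised cytosine, its readers, and DNA methyltransferases with their partners. At 1 dpi 11 of the 37 were listed with more reads than MEFs, or 29.7%, against 11.7% of all genes. Primary neurons had 2 such genes, and induced neurons had 4, 5 and 4 at 3, 5 and 7 dpi, which is 10.8% at 3 and 7 dpi and 5.41% in primary neurons. For all genes the shares were 10.9, 16.9 and 7.44% on those days and 7.43% in primary neurons. With fewer reads there were 12, 10, 10, 10 and 12, or 27.0 to 32.4%, against 34.1 to 36.8% of all genes. Apart from more reads at 1 and 7 dpi, the shares lay near or under those of all genes. The count of 11 at 1 dpi was 4 when p below 1e-05 in the authors' deposited table was required. The share of all genes at that limit was not counted, so the 4 cannot be set against a background. Of the 37, 15 were in no list, or 40.5%, against 41.1% of all genes. Among them were Tdg, the glycosylase that removes 5-formylcytosine and 5-carboxylcytosine, Ogt, the sugar transferase that binds TET enzymes, and Cxxc4.

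**Figure D5:**
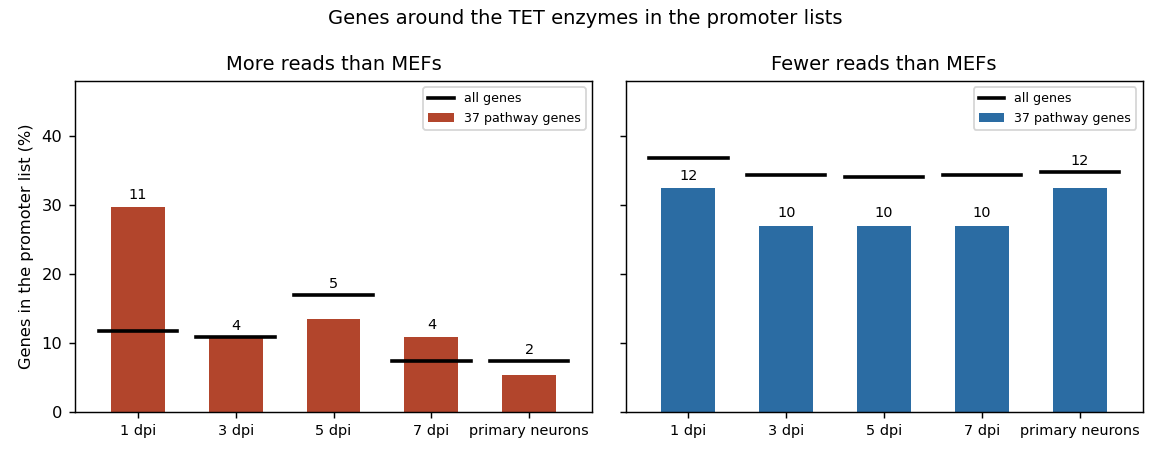
Share of the 37 genes around the TET enzymes (bars, %, with the number of genes) and of all genes (lines) in the lists with more reads (left) and fewer reads (right) than MEFs, by library. The bar for more reads at 1 dpi, 29.7%, is above the 11.7% of all genes, and the bars for fewer reads lie under the lines.

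Among recruiters and suppliers of cofactor, Nanog had the most reads. It encodes a pluripotency factor that binds TET1 and TET2 in mouse embryonic stem cells. Its promoter held 9, 31, 29 and 29 reads at 1, 3, 5 and 7 dpi, against 0 in MEFs. With 0 reads held at 3, these were 5.33, 18.1, 16.9 and 16.9-fold higher. The ratios are not scaled to length, and the window at 1 dpi, from 122706061 to 122706260, was the shortest. The counting intervals began at 3.51, 13.8, 12.9 and 12.9-fold. The regions of 3, 5 and 7 dpi covered nearly the same bases (chromosome 6 from 122705541 to 122706140 at 3 dpi), and in primary neurons another region, 1993 bp downstream of the TSS, held 0 reads, against 15 in MEFs. Idh1, whose enzyme makes 2-oxoglutarate, had 14 and 14 reads at 3 and 5 dpi and 9 in primary neurons, against 0 in MEFs.

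Of the 37 genes, 6 were listed with fewer reads in all 5 comparisons, or 16.2%, against 24.7% of all genes. Among them were D2hgdh, whose enzyme clears the TET inhibitor D-2-hydroxyglutarate, Sin3a, a co-repressor scaffold that binds TET1, Mbd3, a methyl-binding-domain protein, Gadd45b, a stress protein linked to demethylation, and Dnmt3a, a de novo DNA methyltransferase. Mbd3 had 1 read each at 3, 5 and 7 dpi, against 40 in MEFs, a ratio of 22.9 with an interval of 3.87 to 925. It had 5 reads in primary neurons and 0 at 1 dpi, where the ratio was 7.50 with 0 reads held at 3. D2hgdh had 1 read in primary neurons, against 45 in MEFs, a ratio with an interval of 4.26 to 1009. At 7 dpi D2hgdh was also listed with more reads, 14 against 0 in MEFs. That window lay wholly inside the one with 45 MEF reads in primary neurons, an overlap of 200 bp. It also overlapped by 180 bp one with 19 MEF reads at 3 dpi. Dnmt3a was also listed with more reads at 5 dpi, with 9 reads against 0 in MEFs, in a window that overlapped no region of fewer reads. Idh3a and Dnmt3l, listed with more reads at 1 dpi, overlapped such regions by 80 and 60 bp. Apobec1, a cytidine deaminase gene, was listed with fewer reads at 1 dpi (1 read against 26 in MEFs). Hmces, a gene of abasic-site repair, had the most reads of the list's members with more reads in primary neurons (13 against 0). With 0 reads held at 3, this was 7.80-fold higher, with an interval from 5.49-fold. Sin3a had 0 reads at 1 dpi and 1 read in each other library, against 30 in MEFs, at the same place in all 5 comparisons.

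Peaks were assigned to 32 of the 37 genes in MEFs, or 86.5%, against 75.6% of all genes. Outside MEFs there was a peak for Nanog at 1 dpi (6.90-fold) and one for D2hgdh at 3 dpi (3.47-fold) and at 7 dpi (5.18-fold). These single genes are 2.70% of the list, against 0.805, 3.86 and 4.71% of all genes at 1, 3 and 7 dpi.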

How the data were processed

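Promoter values were analysed as the authors deposited them, in a list of regions with more reads than MEFs and one with fewer for each of 5 comparisons, and peaks in 1 list for each of 6 libraries. Per the submitters' processing notes, reads were handled with CASAVA and Bowtie2 2.1.0 on mm10; not given in the sources used here are the callers, their settings and the use of the inputs. Signal at promoters, in deposited columns headed Count, turned out to be whole reads times a constant for each library in each comparison, and dividing by the constant left 100% of values within 0.1 of a whole number. The p-value and q-value of each region are those in the authors' deposited table and compare 2 libraries. In the peak lists, tags at the summit are deposited counts, fold enrichment is a ratio the authors deposited, and the column headed q-value was read from its values as −log10 of q.

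Rows with the gene name Tet1, Tet2 or Tet3 were taken from every list. Files were tied to libraries by the code in their headers; where labels of induced neurons cited a list under the primary neuron code, the headers were followed. Ratios are scaled by the authors' factors, and 0 reads were held at a floor of 3 reads per library. Counts above 0 were kept as they were, so a ratio against 1 read can exceed one against 0 reads. Intervals are exact conditional Poisson intervals at 95% and, like the floor, cover counting error only. With 1 library per group no test across samples was possible. Shares of all genes refer to 26220 genes with a curated RefSeq transcript in GRCm38.p6, the assembly of mm10. The members and gene lists were chosen with earlier results of these data known. Named genes were every row of the members, the 3 genes with the most similar read ratios for each member listed in at least 2 comparisons, and members of a 37-gene list that had fewer reads in all 5 comparisons or the largest ratio in one of them, with 0 reads at the floor; 1 gene that met this rule is not reported here. Since ratios against 0 reads depend on the floor, that order is no ranking of genes with fewer reads. Idh1, Idh3a, Dnmt3l, Tdg, Ogt and Cxxc4 fall outside the rule and were chosen after their values were seen. Interval and factor recovery were tested on simulated counts without a list threshold. Intervals against 0 reads in listed regions were not tested. Software was scipy 1.17.1, pandas 2.3.3, numpy 2.4.6, matplotlib 3.10.9 and Python 3.11.15. After the data had been seen, MEF reads were compared between overlapping regions of different lists.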

Additional observations from a re-analysis of the deposited data

How the results depend on the processing

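With 1 library per group, no replicate could be left out. No paired analysis was possible because each group had 1 library. With a floor of 1 read, the 9 ratios at the Tet genes kept their direction and stayed within their counting intervals. That outcome was fixed in advance: a lower floor can only enlarge a ratio against 0 reads, and these intervals have no upper end. Without the authors' factors, the log2 ratio fell to 1.58 for Tet2 at 3 and 7 dpi and Tet3 at 7 dpi, 2.74 for Tet2 at 5 dpi and 1.74 for Tet2 in primary neurons. Each of these lay below the lower end of its counting interval. Tet1 went to -2.503 at 1, 3, 5 and 7 dpi, further from 0, where its intervals have no end. With the median of every listed region, -2.00 to -1.78, set to 0, Tet1 turned to 0.23, 0.23, 0.082 and 0.30 at 1, 3, 5 and 7 dpi, since most listed regions had fewer reads. With 0 reads, the Tet1 ratio is set by the floor, so a smaller loss than the median cannot be read from it. Required to have p below 1e-05, the Tet regions in the lists numbered 0 in all lists but that of more reads at 5 dpi, where Tet2 was left (1). Under a minimum of 15 reads on the higher side, Tet2 at 3 dpi, Tet2 and Tet3 at 7 dpi and Tet2 in primary neurons were lost (0 left in each), and Tet1 and Tet2 at 5 dpi were kept. Counted by position, added after seeing the data, the list of more reads at 1 dpi held 1 region near a Tet TSS. Of the 49 MEF peaks, 17 had at least 5-fold enrichment, 11 were not intergenic, and 18 peaks lay in the RefSeq spans, with 1 such peak at 1 dpi; without intergenic peaks, 0 were left at 3 dpi. The Tet2 peak at 3 dpi met no MEF peak under either overlap rule. With p below 1e-05, the 37 genes gave 4, 2, 2 and 1 with more reads at 1, 5 and 7 dpi and in primary neurons, and 6, 4 and 6 with fewer at 1, 5 and 7 dpi; other counts of that list stayed within 1.5 times. The share of genes with as many or fewer MEF peaks per 100 kb, with peaks of at least 5-fold, was 23.6% for Tet1, 24.0% for Tet2 and 20.7% for Tet3, and among genes of 10 kb or longer 25.04% for Tet2 and 18.3% for Tet3, where Tet1 stayed at 95.3%. Regions with 9 or 10 reads sit at the limit of what this depth could list.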
